A study of Mus musculus with 43 samples.

Results

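Snap25, Syt1, Rbfox3, Stmn2, Slc17a7, Gad1, Gad2, Nefl, Nrgn and Thy1 are genes of neurons, and their counts were read here as a trace of neuronal RNA in libraries of purified glial cells. The 10 genes were named by their known expression in neurons and not picked by a measured value, though earlier results of these data were known. Each was found once among the 55416 genes counted in all 43 libraries. The study asked whether glial cells of the cerebral cortex need lymphocytes to keep their transcriptomes. No library of neurons was analysed here, so the values cannot be turned into a share of neurons.

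Neurons release transmitter when a SNARE complex that contains SNAP-25 fuses synaptic vesicles with the membrane under the control of the calcium sensor synaptotagmin 1. Excitatory cortical neurons load vesicles with glutamate through the transporter encoded by Slc17a7, and inhibitory neurons make GABA with the enzymes encoded by Gad1 and Gad2. Neuronal RNA can reach a glial preparation with whole neurons, with torn processes and synapses that stick to glia, or as free RNA in the suspension, and some of these genes are also transcribed at low levels in glia.

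The mice were 3 months old and came from a colony in which B6.Cg-Rag2tm1.1Cgn/J animals had been bred with C57BL/6J. Rag2-/- mice cannot rearrange antigen receptor genes and so lack mature T and B lymphocytes in every tissue, and their controls were immunocompetent littermates, Rag2+/- in pairs 1, 2, 3 and 5 and Rag2+/+ in pairs 4 and 6. After perfusion with saline the cortex was dissociated with papain, and cells were caught from the suspension of each mouse on dishes coated against CD45 for microglia, PDGFRα for OPCs (oligodendrocyte precursor cells), GalC for oligodendrocytes and HepaCAM for astrocytes, in that order. The libraries comprised 4 control and 4 Rag2-/- oligodendrocyte samples (pairs 1, 3, 5 and 6), 6 control and 5 Rag2-/- OPC samples, and 6 control and 6 Rag2-/- samples each of astrocytes and microglia. Each cell type was sequenced on a lane of its own, so cell type, place in the panning series and lane cannot be told apart.

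A library held 6499417 to 23118497 counts on genes (median 10447042). Values are given as CPM, a gene's count divided by these gene counts and scaled to 1e+06. Transcripts of the mitochondrial genome took a median of 53.9% of gene counts in oligodendrocytes, 34.0% in astrocytes, 26.97% in OPCs and 9.53% in microglia, so CPM of all other genes depended on that share. Summed CPM of the labelled cell type's own marker list averaged 19665 ± 2175 (SD, n = 8) in oligodendrocytes, 5216 ± 686 (n = 11) in OPCs, 19596 ± 1700 (n = 12) in astrocytes and 11517 ± 696 (n = 12) in microglia. On average this was the highest of the 4 glial lists in each cell type, though OPC libraries also held 4088 ± 1486 CPM of astrocyte markers and astrocyte libraries 4671 ± 578 CPM of oligodendrocyte markers. Astrocyte markers exceeded OPC markers in the Rag2-/- OPC libraries of pairs 1, 2 and 4, at 8142, 5003 and 4519 CPM beside 4474, 4935 and 4018 CPM, and in no control OPC library.

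All 10 genes were counted in all 43 libraries, and their summed level fell in the order oligodendrocytes, OPCs, astrocytes and microglia. The sum was 476 to 1822 CPM in oligodendrocytes (mean 1083 ± 512, SD, n = 8), 472 to 901 CPM in OPCs (622 ± 140, n = 11), 176 to 348 CPM in astrocytes (234 ± 47.4, n = 12) and 68.4 to 156 CPM in microglia (103.9 ± 28.3, n = 12). OPC and oligodendrocyte libraries overlapped in this sum, whereas every OPC library lay above every astrocyte library and every astrocyte library above every microglia library. Snap25 alone made up 55.0% ± 7.49 of the oligodendrocyte sum, 48.6% ± 3.00 of that of OPCs, 50.7% ± 6.59 of that of astrocytes and 42.98% ± 6.44 of that of microglia. In bulk RNA, fewer cells of a type and less RNA per cell cannot be told apart.

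**Figure D1:**
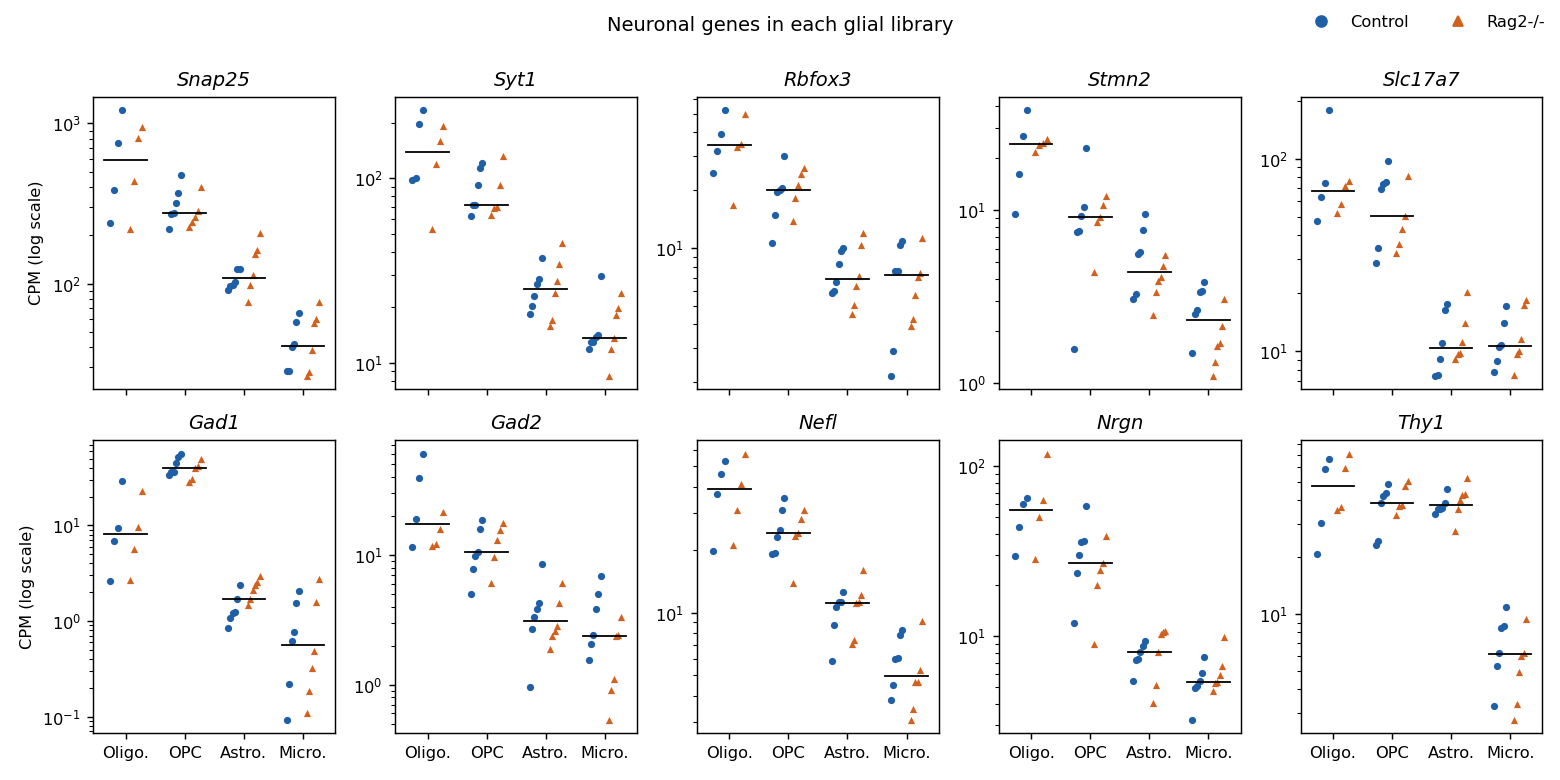
CPM of each of the 10 neuronal genes (log axis, 1 panel per gene) in every library, by cell type (Oligo., oligodendrocytes; Astro., astrocytes; Micro., microglia); blue circles are control and orange triangles Rag2-/- libraries, and black lines are medians over the libraries of a cell type. Most genes step down from oligodendrocytes to microglia, while Gad1 is highest in OPCs (28.7 to 56.4 CPM). Thy1 in astrocytes (27.4 to 52.5 CPM) overlaps the range of OPCs (23.3 to 50.9 CPM).

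Differences between cell types were tested in a single edgeR quasi-likelihood fit of all 43 libraries with the mouse as a block, after TMM scaling, and p-values were adjusted over the 19209 genes tested. TMM shifts the reference of each library so that most genes do not differ, and it set the effective library size at a median of 0.593 (oligodendrocytes), 1.24 (OPCs), 0.981 (astrocytes) and 1.20 (microglia) of the gene counts. Oligodendrocyte values are therefore raised on this scale relative to CPM. Differences in favour of oligodendrocytes become larger than in CPM, and differences in the other direction smaller or reversed. Of the 10 neuronal genes, 9 were higher in oligodendrocytes than in OPCs, as were 14.9% of all genes tested, and their median log2 fold change was 1.80 beside -0.26 over all genes. All 10 were higher in oligodendrocytes than in astrocytes (24.9% of all genes; medians 3.05 and -0.03) and higher in oligodendrocytes than in microglia (33.5%; medians 4.11 and -0.09). OPCs exceeded astrocytes for 8 genes (25.3% of all genes; medians 1.17 and 0.13) and microglia for all 10 (39.8%; medians 2.24 and 0.18). Astrocytes exceeded microglia for 9 genes (37.9%; medians 1.17 and 0.12). None of the 10 was called in the other direction, as were 23.5%, 23.7%, 34.4%, 17.8%, 31.6% and 34.1% of all genes in these 6 comparisons in the same order.

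Scaling by gene counts without mitochondrial transcripts in place of TMM moved the median of all genes between oligodendrocytes and OPCs from -0.26 to -0.70. Of the 10 neuronal genes, 9 were called higher in oligodendrocytes on that scale too, whereas over all genes the number called higher went from 2869 to 1681. No fit was made on plain CPM. Like TMM, the scale without mitochondrial transcripts raises oligodendrocytes against OPCs relative to CPM (median mitochondrial shares 53.9% and 26.97%). With that scaling Snap25 differed by 1.49 ± 0.24 (log2, SE), and Gad1 was called lower in oligodendrocytes (-1.43 ± 0.42, adjusted p = 0.0045, edgeR).

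Snap25 (chromosome 2, 136533580 to 136624362, plus strand, GRCm39) encodes the SNARE protein of the presynaptic membrane. Its level was 218 to 1212 CPM in oligodendrocytes (median 591), 220 to 478 CPM in OPCs (277), 76.4 to 207 CPM in astrocytes (108) and 26.5 to 76.6 CPM in microglia (40.8). Only the highest microglia library and the lowest astrocyte library, at 76.6 and 76.4 CPM, touched between those cell types, and astrocytes and OPCs did not overlap. The log2 difference was 1.95 ± 0.25 (SE) between oligodendrocytes and OPCs (adjusted p = 6.6e-08, edgeR quasi-likelihood test), 0.95 ± 0.21 between OPCs and astrocytes (adjusted p = 3.0e-04) and 1.81 ± 0.21 between astrocytes and microglia (adjusted p = 1.4e-09). Per kilobase of annotated exon Snap25 was also the most abundant of the 10 in each cell type, at a mean of 62.3 CPM (oligodendrocytes), 30.3 (OPCs), 12.0 (astrocytes) and 4.56 (microglia).

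Syt1 (chromosome 10, 108333505 to 108846856, minus strand) encodes the calcium sensor of fast transmitter release and followed Snap25. It ranged from 53.0 to 235 CPM in oligodendrocytes (median 139), 62.3 to 132 CPM in OPCs (71.7), 15.8 to 44.8 CPM in astrocytes (25.2) and 8.50 to 29.5 CPM in microglia (13.7). Neighbours in this order overlapped except OPCs and astrocytes. All 3 steps passed the test, with log2 differences of 1.74 ± 0.23, 1.33 ± 0.20 and 1.09 ± 0.20 (adjusted p = 2.2e-07, 1.3e-06 and 9.8e-06, edgeR).

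Slc17a7 (chromosome 7, 44813305 to 44825644, plus strand) encodes VGLUT1, the vesicular glutamate transporter of most cortical excitatory neurons. Its level was 47.3 to 179 CPM in oligodendrocytes (median 67.7), 28.7 to 97.2 CPM in OPCs (50.02), 7.41 to 20.2 CPM in astrocytes (10.4) and 7.47 to 18.4 CPM in microglia (10.6). Astrocytes and microglia covered the same range, and the difference between them did not pass the test (log2 0.32 ± 0.26, adjusted p = 0.27, edgeR). OPCs exceeded astrocytes by 1.80 ± 0.26 (adjusted p = 7.1e-07). Of the exonic bases of Slc17a7, 5.61% overlap Gm72144 on the other strand, and no source used here gives the strand setting of the counting.

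Gad1 (chromosome 2, 70383416 to 70432372, plus strand) and Gad2 (chromosome 2, 22511862 to 22583886, plus strand) encode the 2 glutamate decarboxylases that make GABA, GAD67 and GAD65. Both are usually transcribed in the same inhibitory neurons, and here they departed from each other in OPCs. Gad1 was present at 28.7 to 56.4 CPM in OPCs (median 39.4), 2.64 to 29.2 CPM in oligodendrocytes (8.08), 0.851 to 2.98 CPM in astrocytes (1.69) and 0.0930 to 2.72 CPM in microglia (0.556), where it rested on 1 to 28 counts a library. Gad2 was present at 4.96 to 18.6 CPM in OPCs (10.6), 11.5 to 60.7 CPM in oligodendrocytes (17.4), 0.953 to 8.60 CPM in astrocytes (3.08) and 0.538 to 6.86 CPM in microglia (2.39). Gad1 in OPCs thus lay above all astrocyte and microglia libraries and met only the highest oligodendrocyte library.

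OPCs exceeded astrocytes by 4.17 ± 0.39 on the log2 scale for Gad1 (adjusted p = 4.8e-11) and by 1.33 ± 0.31 for Gad2 (adjusted p = 7.1e-04, edgeR). Against microglia the differences were 5.74 ± 0.43 and 2.22 ± 0.32. Oligodendrocytes exceeded OPCs by 1.85 ± 0.35 for Gad2 (adjusted p = 7.5e-05), whereas Gad1 differed by -0.96 ± 0.42 (adjusted p = 0.071) and was the only one of the 10 with a negative value in that comparison. Per kilobase of exon Gad1 was the least abundant of the 10 in oligodendrocytes, astrocytes and microglia, at means of 1.07, 0.173 and 0.0857 CPM. In OPCs it averaged 3.92 CPM and Gad2 1.81 CPM per kilobase. A noncoding gene on the other strand, Gad1os, covers 0.951% of the exonic bases of Gad1.

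Because Gad1 and Gad2 differed among the cell types, short stretches before their RefSeq start sites are shown with the letters of promoter elements that a search of both strands found there. Of the 10 genes, 6 had an entry in the RefSeq promoter table. The searched window was the 250 bases before the start, at chr2:70392223-70392472 for Gad1 and chr2:22512089-22512338 for Gad2 (GRCm39, plus strand, placed by exact match). A later annotation counts all of both windows as untranslated region of the same genes. Both windows lie inside the genes as annotated there, which start at 70383416 and 22511862. Capitals mark the matches, written 5′ to 3′ on the plus strand: the TATA letters TATAAA and the GC box GGGCGG, both read on the minus strand of Gad1, and GGACAGC of RE1, the element bound by the repressor of neuronal genes REST, on the plus strand of Gad2.
Gad1, chr2:70392320-70392349: ccgtgagctggaTTTATAatcgccctacaa
Gad1, chr2:70392443-70392472: agcgggtccccgcctccccactCCGCCCcc
Gad2, chr2:22512173-22512202: ggtagcaccctGGACAGCgcgttccggcag
The same searches matched 12.4% (TATAAA), 32.7% (GGGCGG) and 5.28% (GGACAGC) of the 32851 promoter windows. Gad1 held no match to GGACAGC and Gad2 none to TATAAA or GGGCGG. Neither held an exact match to TCAGCACC, the other part of RE1, which 1.32% of windows had. The search took exact letters alone, and the Gad2 stretch holds AGCACC, the end of TCAGCACC, shortly before GGACAGC. Binding of REST there was not tested. The E-box letters CANNTG were found in both windows (66.2% of all windows), and CCAAT in that of Gad2 alone (33.85%). The Gad1 window contained 17 CG dinucleotides at 58% G and C, and the Gad2 window 13 at 64%.

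Nefl (chromosome 14, 68321268 to 68326544, plus strand) encodes the light neurofilament subunit of axons. It was present at 19.6 to 57.6 CPM in oligodendrocytes (median 38.9), 13.8 to 35.1 CPM in OPCs (24.1), 5.83 to 15.9 CPM in astrocytes (11.1) and 3.08 to 9.06 CPM in microglia (5.00). Neighbouring cell types overlapped, and each step passed the test, by 1.74 ± 0.27, 0.82 ± 0.23 and 1.26 ± 0.24 (log2, SE; adjusted p = 3.2e-06, 0.0043 and 1.4e-05, edgeR). Nefm, also a neurofilament gene, overlaps 33.6% of the exonic bases of Nefl on the other strand.

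Stmn2 (chromosome 3, 8574151 to 8626667, plus strand) encodes stathmin 2, which regulates microtubules in growing axons, and was the least abundant of the 10 in OPCs by CPM. Its level was 9.51 to 38.2 CPM in oligodendrocytes (median 24.4), 1.57 to 23.1 CPM in OPCs (9.19), 2.47 to 9.59 CPM in astrocytes (4.42) and 1.10 to 3.85 CPM in microglia (2.33). OPCs overlapped all astrocyte libraries, and the difference did not pass the test (0.50 ± 0.30, adjusted p = 0.19). It did so when library sizes left out mitochondrial transcripts (0.76 ± 0.30, adjusted p = 0.032, edgeR). Oligodendrocytes exceeded OPCs by 2.53 ± 0.36 (adjusted p = 5.4e-07).

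Rbfox3 (chromosome 11, 118380442 to 118802423, minus strand) encodes NeuN, an RNA-binding protein of neuronal nuclei. It was present at 16.7 to 52.3 CPM in oligodendrocytes (median 34.3), 10.6 to 30.2 CPM in OPCs (19.9), 4.51 to 11.9 CPM in astrocytes (6.92) and 2.15 to 11.3 CPM in microglia (7.24). Microglia had the higher median in CPM, and the difference of 0.57 ± 0.23 in favour of astrocytes (adjusted p = 0.023, edgeR) was not called in control mice alone (0.51 ± 0.35, adjusted p = 0.21) or in Rag2-/- mice alone (0.55 ± 0.29, adjusted p = 0.12).

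Nrgn (chromosome 9, 37452275 to 37464689, minus strand) encodes neurogranin, a calmodulin-binding protein of dendritic spines. Its level was 28.7 to 119 CPM in oligodendrocytes (median 55.0), 8.97 to 58.5 CPM in OPCs (26.97), 4.05 to 10.8 CPM in astrocytes (8.09) and 3.23 to 9.96 CPM in microglia (5.41). The steps were 2.01 ± 0.28, 1.47 ± 0.24 and 0.79 ± 0.24 (log2, SE; adjusted p = 4.0e-07, 5.4e-06 and 0.0038, edgeR), and each pair of neighbours overlapped. On the other strand Gm57038 and Vsig2 cover 24.95% of its exonic bases.

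Thy1 (chromosome 9, 43954332 to 43959880, plus strand) encodes a surface protein of neurons that mouse T cells also carry. It stood apart from the other genes in astrocytes, where it reached 27.4 to 52.5 CPM (median 37.6) beside 23.3 to 50.9 CPM in OPCs (38.9), 20.8 to 71.0 CPM in oligodendrocytes (47.8) and 2.75 to 10.9 CPM in microglia (6.10). The difference between OPCs and astrocytes was -0.41 ± 0.22 (adjusted p = 0.13), the only negative value of the 10 in that comparison, while astrocytes exceeded microglia by 2.95 ± 0.23 (adjusted p = 8.2e-14, edgeR).

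In microglia, the CD45 dish could also hold lymphocytes, and the 11 T cell markers together had 114 to 511 counts in control and 145 to 364 counts in Rag2-/- libraries. Most of these counts were of Cd4 (20 to 214 and 58 to 190) and Cd5 (31 to 169 and 56 to 155), which overlapped between the genotypes, as did Lck (10 to 40 and 8 to 42). Cd3e, a subunit of the T cell receptor complex, had 8 to 39 counts in controls and 0 in all 6 Rag2-/- libraries, which allows up to 3 counts in each. Thy1 had 27 to 119 and 26 to 103 counts in the same libraries (log2 difference -0.34 ± 0.32 for Rag2-/- against control, adjusted p = 1.0, edgeR). The part of T cells in the level of Thy1 was not tested.

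A ratio of counts of 2 genes within a library does not depend on its scaling. The log2 ratio of each gene to Snap25 was compared between cell types within mice by exact two-sided sign-flip permutation tests, adjusted over 54 tests. Of these, 24 passed. The tests between control mice alone could reach no smaller p than 0.031 with 6 mice and 0.13 with 4, and none of them passed after adjustment.

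The Gad1 to Snap25 ratio was higher in OPCs than in astrocytes in 11 of 11 mice, by 3.16 ± 0.85 (log2, SD over mice; adjusted p = 0.011, exact permutation test), and higher than in microglia in 11 of 11 mice, by 3.17 ± 1.68 (adjusted p = 0.011, exact). Oligodendrocytes had a lower ratio than OPCs in 7 of 7 mice, by -3.41 ± 0.84 (adjusted p = 0.038, exact), at the smallest p that 7 mice allow. Oligodendrocytes, astrocytes and microglia differed from each other in this ratio by 0.09 to 0.50, less than the SD over mice. Gad2 to Snap25 passed in none of the 6 comparisons, and OPCs differed from oligodendrocytes by 0.02 ± 1.03 in it.

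The Thy1 to Snap25 ratio was higher in astrocytes than in OPCs in 11 of 11 mice (OPCs minus astrocytes -1.43 ± 0.63, adjusted p = 0.011, exact), than in oligodendrocytes in 8 of 8 (-1.79 ± 0.60, adjusted p = 0.023, exact) and than in microglia in 11 of 12 (astrocytes minus microglia 1.29 ± 0.96, adjusted p = 0.013, exact). Microglia differed from the other cell types in more ratios, 5 of 9 against oligodendrocytes, 6 of 9 against OPCs and 5 of 9 against astrocytes. Their ratios of Rbfox3, Slc17a7 and Nrgn to Snap25 passed against each of the other 3 cell types, and all were higher in microglia, for instance Nrgn against astrocytes in 12 of 12 mice (astrocytes minus microglia -1.01 ± 0.54, adjusted p = 0.011, exact). Oligodendrocytes and OPCs differed in 2 of 9 ratios, the other being Stmn2 (0.95 ± 0.82, higher in oligodendrocytes in 7 of 7 mice, adjusted p = 0.038, exact).

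With Syt1 in place of Snap25 as the reference, 9 of the 54 tests passed. Among these were Gad1 in OPCs against astrocytes and against microglia (2.80 ± 0.81 and 3.53 ± 1.79, each in 11 of 11 mice, adjusted p = 0.013, exact). All 3 contrasts of Thy1 in astrocytes also passed, by 2.11 against oligodendrocytes, 1.78 against OPCs and 1.98 against microglia in size. The contrast of Gad1 between oligodendrocytes and OPCs did not pass with that reference (-3.26 ± 1.00, lower in oligodendrocytes in 7 of 7 mice, adjusted p = 0.077, exact). Its unadjusted p was the smallest that 7 mice allow. Of the 9 contrasts of Rbfox3, Slc17a7 and Nrgn in microglia that passed with Snap25, 2 passed with Syt1, Rbfox3 against OPCs (-0.83 ± 0.69, adjusted p = 0.047, exact) and Slc17a7 against astrocytes (-0.76 ± 0.73, adjusted p = 0.047, exact). Nrgn passed against none of the 3, and its difference from oligodendrocytes was 0.17 ± 0.57, opposite in sign to that with Snap25.

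**Figure D2:**
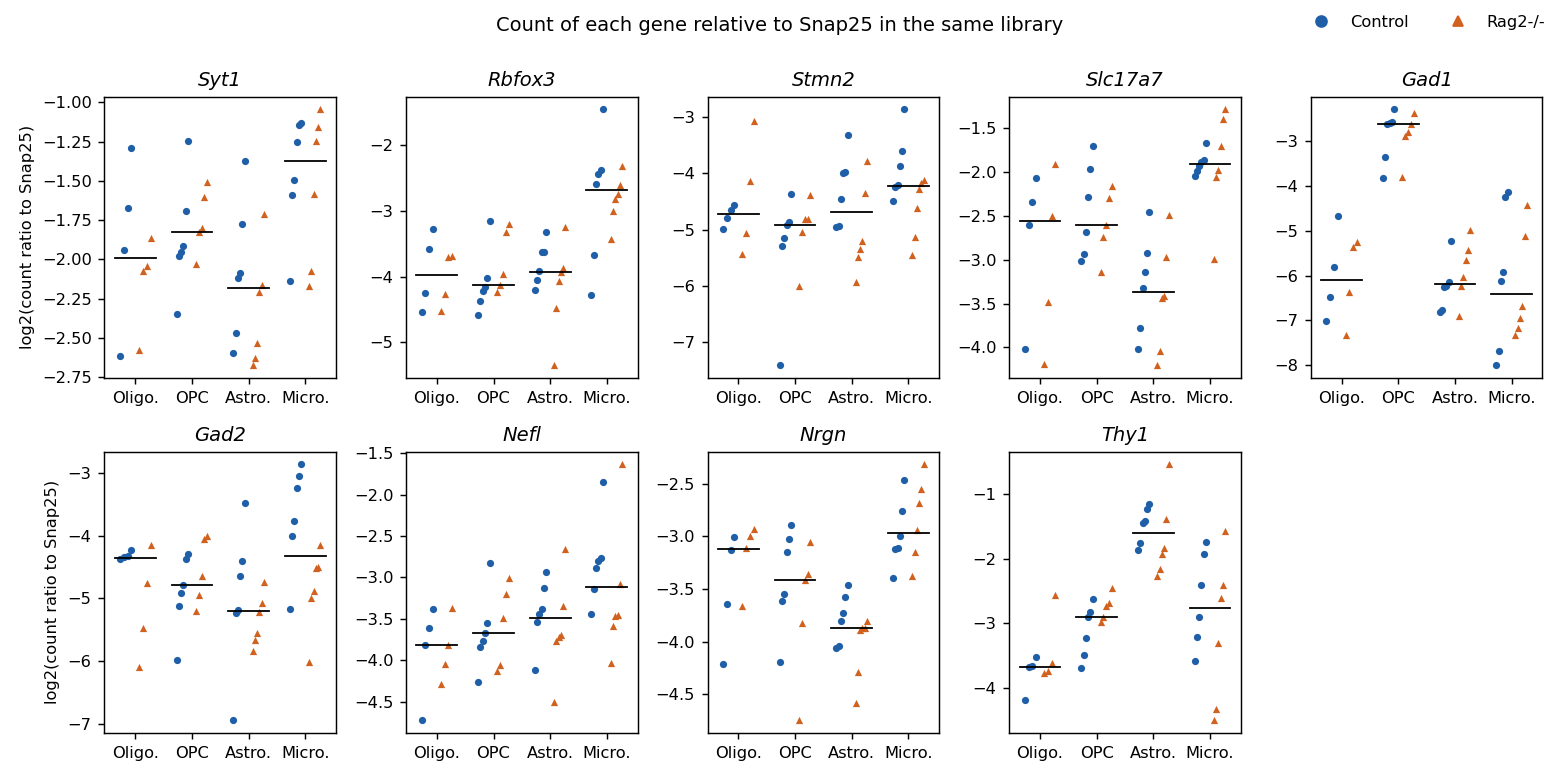
log2 ratio of each gene's count (plus 0.5) to the Snap25 count (plus 0.5) of the same library, 1 panel per gene on its own axis, by cell type; blue circles are control and orange triangles Rag2-/- libraries, and black lines are medians. Gad1 stands higher in OPCs than in the other 3 cell types (higher than in astrocytes in 11 of 11 mice), and Thy1 stands highest in astrocytes.

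Wider lists of neuronal genes were read in the same fit. Of 15 genes of synaptic vesicles and release, 12 were higher in oligodendrocytes than in OPCs (14.9% of all genes), 11 in OPCs than in astrocytes (25.3%) and 13 in astrocytes than in microglia (37.9%). Syn1, which encodes the vesicle protein synapsin, averaged 162, 133, 38.3 and 14.6 CPM in oligodendrocytes, OPCs, astrocytes and microglia, while Vamp2, which encodes the vesicle SNARE, averaged 218, 202, 187 and 64.5 CPM. Of 10 cytoskeletal genes, 6, 6 and 10 were higher in these steps, and 1 was lower in OPCs than in astrocytes (17.8% of all genes). Camk2n1 and Map1b averaged 555 and 711 CPM in oligodendrocytes and 353 and 338 CPM in OPCs. Map2 went the other way, with 546 CPM in OPCs and 256 CPM in oligodendrocytes. All 5 long noncoding RNAs were higher in OPCs than in astrocytes, and 2 of the 5 higher in astrocytes than in microglia, a share near the 37.9% of all genes, with a list median of 0.003 beside 0.12 over all genes. Meg3 averaged 178 CPM in astrocytes and 220 CPM in microglia.

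All 8 genes of neuronal RNA-binding proteins were higher in OPCs than in astrocytes (25.3% of all genes). Between oligodendrocytes and OPCs, 4 were higher in oligodendrocytes (14.9%) and 2 lower (23.5%), with a list median of 1.09 beside -0.26. Nova1, a neuronal splicing factor, averaged 132 CPM in OPCs, 20.9 in oligodendrocytes and 26.2 in astrocytes, and it was lower in oligodendrocytes than in OPCs by -1.64 ± 0.25 (adjusted p = 2.0e-06, edgeR). Elavl4 was lower there as well (-1.10 ± 0.24, adjusted p = 4.3e-04), so Gad1 was not the only neuronal gene with its highest CPM in OPCs. Celf4 and Elavl3 of the same list averaged 108 and 78.7 CPM in oligodendrocytes and 98.4 and 53.9 CPM in OPCs. Of 11 genes of excitatory neurons, 7 were higher in oligodendrocytes than in OPCs (14.9% of all genes) and none lower. Between OPCs and astrocytes, 7 were higher in OPCs (25.3%) and 2 lower (17.8%). Between astrocytes and microglia, 9 were higher in astrocytes (37.9%) and none lower. Rorb of this list averaged 379 CPM in astrocytes and 84.1 CPM in OPCs. Camk2a, the kinase of excitatory synapses, averaged 646, 677, 224 and 145 CPM in oligodendrocytes, OPCs, astrocytes and microglia.

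Other genes of inhibitory neurons were read beside Gad1 in OPCs. Slc32a1, the vesicular GABA transporter, averaged 1.23 CPM in OPCs and 0.688 CPM in oligodendrocytes, and OPCs differed from astrocytes by 2.05 ± 0.90 (adjusted p = 0.065). The peptide genes Sst and Cck averaged 7.20 and 26.0 CPM in OPCs and 25.2 and 47.8 CPM in oligodendrocytes, and both were higher in oligodendrocytes than in OPCs (2.96 ± 0.45 and 1.92 ± 0.41, adjusted p = 2.3e-06 and 3.2e-04, edgeR). Of the 12 genes of this list, 9 passed the filter on low counts. Between oligodendrocytes and OPCs, 4 were called higher in oligodendrocytes (14.9% of all genes) and 1 lower (23.5%).

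The comparison of Rag2-/- with control mice was made within each cell type with sex as a covariate. None of the 10 genes was called in any cell type by edgeR, DESeq2 or any other fit. In oligodendrocytes, where 0% of 13802 genes were called, Snap25 was 386, 239, 748 and 1212 CPM in the controls of pairs 1, 3, 5 and 6 and 433, 218, 950 and 804 CPM in their Rag2-/- littermates. The groups overlapped throughout, as did those of Syt1 at 101, 97.6, 235 and 198 CPM in controls and 119, 53.0, 159 and 191 CPM in Rag2-/- mice. With sex in the fit, all 10 log2 differences were negative, from -1.31 to -0.04 (median -0.47 beside 0.003 over all genes). Without the control of pair 6, those of Snap25, Stmn2, Nrgn and Thy1 were positive, at 0.18, 0.51, 0.34 and 0.40. CPM, which takes no account of sex, was not uniformly lower in Rag2-/- mice. Thy1 was 30.2, 20.8, 58.8 and 66.6 CPM in the controls of pairs 1, 3, 5 and 6 and 35.5, 36.7, 71.0 and 59.2 CPM in their Rag2-/- littermates. The SE of the 10 reached 0.60, for Snap25, so the lack of calls does not show equal levels. Of the 10, 1 had an unadjusted p under 0.05, as had 3.38% of all genes. That gene was Gad2, at 18.9, 11.5, 39.6 and 60.7 CPM in controls and 15.9, 12.2, 21.3 and 11.8 CPM in Rag2-/- mice (-1.31 ± 0.58, unadjusted p = 0.042, adjusted p = 1.0, and -1.58 to -0.56 with each library left out).

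**Figure D3:**
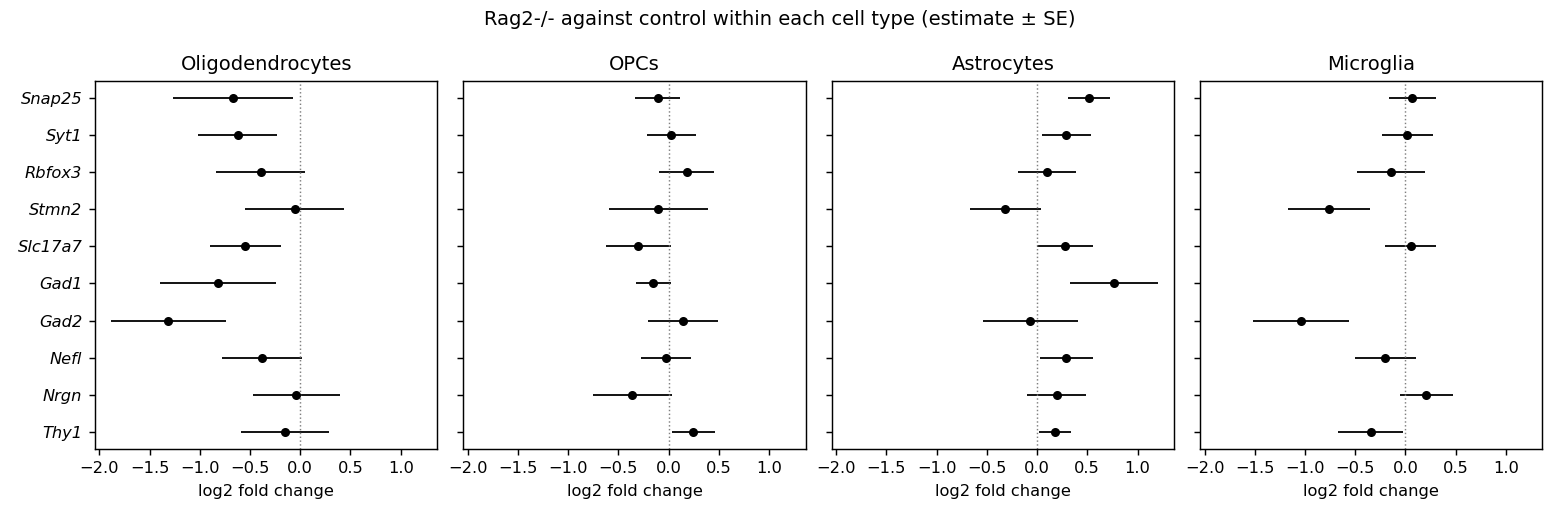
log2 fold change of each neuronal gene in Rag2-/- against control libraries (points) with its SE (bars) from the edgeR fit with sex as a covariate, 1 panel per cell type; the dotted line is no difference. Values run from -1.31 for Gad2 in oligodendrocytes to 0.77 for Gad1 in astrocytes, and none passed the test; Gad1 in microglia was too low to be tested and has no point.

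In OPCs, where 0.00592% of 16882 genes were called, the 10 log2 differences lay between -0.36 and 0.24 and 0 had an unadjusted p under 0.05. Snap25 was 220 to 478 CPM in controls (median 297) and 224 to 401 CPM in Rag2-/- OPCs (261). Gad1 had a median of 40.8 CPM in controls (33.5 to 56.4) and 39.4 CPM in Rag2-/- OPCs, with the lowest at 28.7 CPM (-0.16 ± 0.17, adjusted p = 1.0, edgeR). Its high level in OPCs was thus present in both genotypes. Of the 8 astrocyte markers in OPC libraries, 7 had an unadjusted p under 0.05 for genotype and none was called (median log2 difference 0.64 beside -0.01 over all genes), and their part in the values of the 10 genes was not tested.

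In astrocytes, where 0.00679% of 14725 genes were called, 8 of the 10 differences were positive. Snap25 was 91.5 to 124 CPM in controls (median 100) and 76.4 to 207 CPM in Rag2-/- mice (133), with a difference of 0.52 ± 0.21 that had an unadjusted p of 0.026 and an adjusted p of 1.0. Thy1, with 34.0 to 46.1 CPM in controls and 27.4 to 52.5 CPM in Rag2-/- mice, differed by 0.18 ± 0.16. In microglia, where 0.00667% of 15003 genes were called, 9 genes passed the filter and Gad1 did not. Gad2 ranged from 1.55 to 6.86 CPM in controls and 0.538 to 3.30 CPM in Rag2-/- mice (-1.04 ± 0.48, unadjusted p = 0.040, adjusted p = 1.0), and the groups overlapped.

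Whether the genotype difference itself changed with the cell type was asked with an interaction test over all 43 libraries. It called 0 of the 10 genes (edgeR), 0 had an unadjusted p under 0.05, and 0.248% of 21368 genes were called. The smallest adjusted p of the 10 was 0.63, for Gad2. Of the genes in the 6 wider lists, none was called for genotype in any cell type.

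The oligodendrocyte libraries were also set side by side by littermate pair. The summed level of the 10 genes was 735 and 822 CPM in the control and Rag2-/- library of pair 1, 503 and 476 CPM in pair 3, 1469 and 1523 CPM in pair 5, and 1822 and 1311 CPM in pair 6. The 4 libraries of pairs 5 and 6 lay above the 4 of pairs 1 and 3. The 15 vesicle and release genes, which do not include the 10, summed to 996 and 1057 CPM in pair 1, 956 and 721 CPM in pair 3, 1302 and 1200 CPM in pair 5 and 1287 and 1274 CPM in pair 6. Beside these, the 7 OPC markers summed to 607 and 744, 934 and 1076, 540 and 586, and 280 and 279 CPM in pairs 1, 3, 5 and 6. The 9 markers of mural cells and fibroblasts were highest in the control of pair 6, at 64.9 CPM, which also held the most Snap25, and 8.59 to 11.5 CPM in pairs 1 and 3. The number of genes detected also went with the pairs, at 22700 and 20222 in pair 1, 21366 and 19765 in pair 3, 18092 and 17725 in pair 5 and 18209 and 18924 in pair 6. The part of these other cells and of library complexity in the difference between pairs was not tested.

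**Figure D4:**
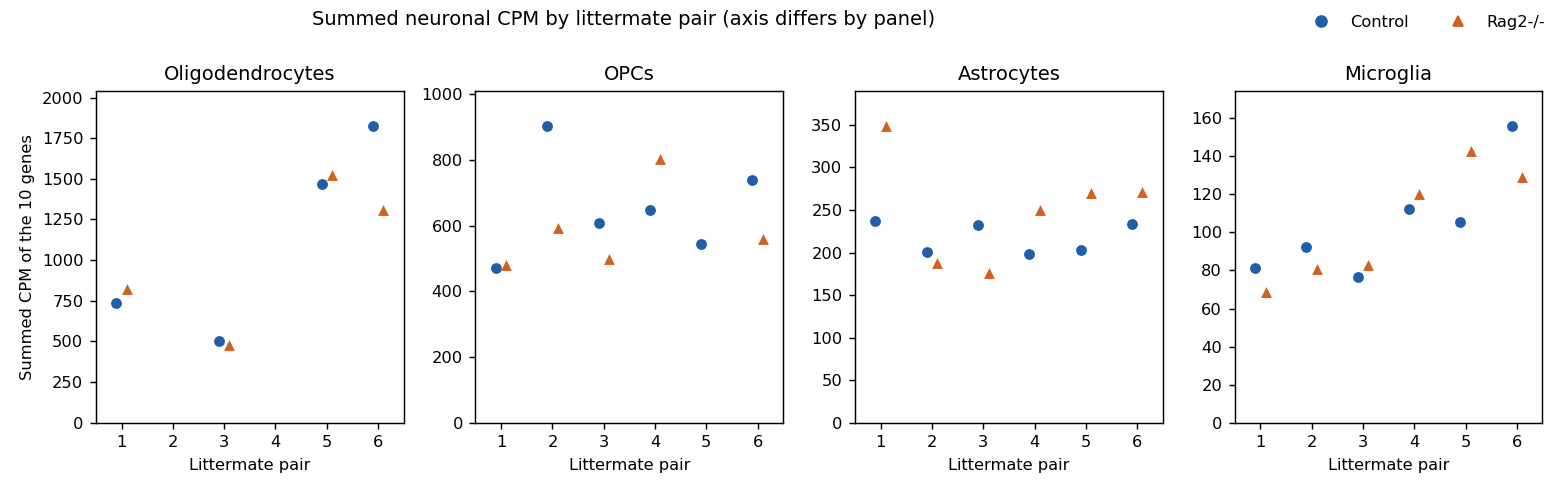
Summed CPM of the 10 neuronal genes against littermate pair number, 1 panel per cell type with its own axis from 0; blue circles are control and orange triangles Rag2-/- libraries. In oligodendrocytes pairs 5 and 6 lie at 1311 to 1822 CPM and pairs 1 and 3 at 476 to 822 CPM, and in microglia pairs 4 to 6 lie at 106 to 156 CPM and pairs 1 to 3 at 68.4 to 92.4 CPM.

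In microglia the sum was 81.2 and 68.4 CPM in pair 1, 92.4 and 80.9 CPM in pair 2, 76.4 and 82.8 CPM in pair 3, 112 and 120 CPM in pair 4, 106 and 143 CPM in pair 5, and 156 and 129 CPM in pair 6 (control and Rag2-/-). The 6 libraries of pairs 4 to 6 were all above the 6 of pairs 1 to 3. OPC markers in these microglia libraries summed to 41.5 to 77.2 CPM in pairs 4 to 6 and 8.46 to 26.8 CPM in pairs 1 to 3, and their part was not tested. In OPCs and astrocytes the pairs were interleaved, with 472 to 901 and 176 to 348 CPM over all pairs.

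Females and males were compared in the same fits, and none of the 10 genes was called in any cell type (background 0.0362% for oligodendrocytes, 0.0296% for OPCs, 0.0407% for astrocytes and 0.0467% for microglia). In oligodendrocytes all 10 differences were positive, with a median of 1.01 beside -0.03 over all genes, and 6 had an unadjusted p under 0.05, as had 8.23% of all genes. Gad1 was 22.9, 29.2 and 9.62 CPM in the 3 female libraries and 2.68, 5.70, 6.80, 2.64 and 9.36 CPM in the 5 male libraries, without overlap (2.31 ± 0.58, unadjusted p = 0.0020, adjusted p = 0.47, edgeR). Without the filter on low counts, Gad1, Snap25 and Syt1 were called (adjusted p = 0.036, 4.0e-04 and 0.014), and DESeq2 called Gad1 (adjusted p = 0.011).

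The female oligodendrocyte libraries were both of pair 5 and the Rag2-/- library of pair 6, and the highest sum of all belonged to a male, the control of pair 6. Only pair 6 held mice of both sexes, so sex and pair could be separated there alone. In that pair the male was the control and the female the Rag2-/- mouse. The sex difference with the pair as a block thus rests on pair 6 and on taking the genotype difference as equal in all pairs. With the pair as a block, Snap25 differed by -0.72 ± 0.32 in females against males and Gad2 by -2.01 ± 0.75, both opposite in sign to the fit without the block, and none was called (adjusted p = 0.60 and 0.59, edgeR). Of the other cell types, Syt1 in astrocytes had an unadjusted p under 0.05 (-0.58 ± 0.25, adjusted p = 0.72).

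Within the 10, levels moved together from library to library. Pearson's r of each gene's log2 CPM with the mean of the other 9 was 0.89 to 0.98 over the 43 libraries for 8 genes, 0.76 for Gad1 and 0.78 for Thy1, beside a median of -0.09 for all other genes. These points share library and cell type. After the mean of each cell type was subtracted, r was 0.81 for Snap25 and 0.80 for Syt1, 0.50 to 0.68 for Rbfox3, Stmn2, Slc17a7, Gad2, Nefl, Nrgn and Thy1, and 0.44 for Gad1, beside a median of -0.08.

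Outside the 10, the genes most like their mean over the 43 libraries were Arpp21 (r = 0.98), Olfm1, Map1b, Syn1 and Vsnl1 (0.97 each). After subtraction of the cell type means Arpp21 (0.82) and Grin2b (0.81) led, and Chn1 and Rbfox1 (0.75 each) were also among the closest 5. Arpp21, which encodes a cAMP-regulated phosphoprotein, headed both lists and averaged 121, 116, 49.2 and 23.2 CPM in oligodendrocytes, OPCs, astrocytes and microglia. Grin2b, an NMDA receptor subunit gene, averaged 272, 146, 94.7 and 32.3 CPM in the same order.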

How the data were processed

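The authors amplified cDNA from total RNA (Ovation V2), sequenced read pairs, aligned them with STAR 2.7.8a to GRCm39 and counted them per Ensembl gene with HTSeq 0.13.5. The deposited files hold raw counts of read pairs, 1 file for each of the 43 libraries and 55416 genes in each. Counting mode and strand setting were not given in the sources used here, and amplification can raise the spread of low counts. The 5 sums of unassigned read pairs (33.5% to 52.0% of a library) were left out. Names and positions were taken from GENCODE M39 (54749 genes matched), and promoter sequences from RefSeq (GRCm38.p6). The 10 genes, the wider lists and the tests were chosen with earlier results of these data known. Every one of the 10 was named, and of each list the 3 genes with the highest mean CPM and those past the threshold for genotype or sex, as well as the 5 genes most correlated with the mean of the 10 (log2 CPM, prior count 2). Elavl4, Slc32a1, Cd3e, Cd4, Cd5 and Lck were chosen after their values were seen. Some genes that the rule names are not reported here.

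Counts were tested with edgeR 4.0.16 in R 4.3.3 (filterByExpr with a minimum count of 10, TMM, quasi-likelihood F test, two-sided, Benjamini-Hochberg over all genes tested, threshold 0.05), with sex and genotype as terms within a cell type and with the mouse as a block between cell types. Ratios were tested by exact sign-flip permutation after 0.5 was added to each count. DESeq2 1.42.0, other scalings, filters and blocks, the heterozygous controls alone and leaving out each library were the alternatives. The littermate pair as a block together with sex was added after the data were seen. The tests were first tried on simulated counts with known changes.

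The labels number the pairs and the study describes them as littermates. The mean correlation of littermates in their departures from group means was 0.083 (oligodendrocytes), 0.082 (OPCs), 0.090 (astrocytes) and 0.062 (microglia), and -0.027, -0.016, -0.017 and -0.013 for mice of different pairs. Libraries of a group were separate samples (chi-square per gene of at least 7.52 in 97 comparisons). Each library came from 1 mouse. Figures were drawn with matplotlib 3.10.9.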

Additional observations from a re-analysis of the deposited data

Results flagged for a closer look

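A sample far from the others of its group was looked for in the 80 groups of 4 to 6 libraries (10 genes in 8 groups), with Dixon's test, which flags about 1 in 20 groups by chance. It marked 2. Nrgn in the microglia of the Rag2-/- mouse of pair 5 was at 9.96 CPM (122 counts), while the other 5 Rag2-/- microglia libraries lay between 4.76 and 6.69 CPM. Syt1 in the microglia of the control mouse of pair 6 was at 29.5 CPM (405 counts), while the other 5 control libraries lay between 11.9 and 14.2 CPM. That control also had the highest summed level of the 10 genes among the 12 microglia libraries, 156 CPM.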

How the results depend on the processing

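No gene of the 10 was called for genotype, or for the difference of the genotype effect between cell types, under any alternative or with any single library left out (0 to 0 called), and none for sex with any library left out. For sex in oligodendrocytes, 3 were called without a filter on low counts and 1 by DESeq2. With the littermate pair as a replicate block in place of sex, 0 were called for genotype in each cell type, and the fit of cell types without the replicate block called 9, 10, 10, 8, 10 and 9 genes, as with it, so the block changed no other call. With control mice alone 6 of the 10 genes, and with Rag2-/- mice alone 6, were called between OPCs and astrocytes, and 6 and 7 between astrocytes and microglia. Of 54 ratio tests, 9 passed with Syt1 as the reference and 0 in control mice alone, where the number of mice sets the smallest p. Summed CPM rose without mitochondrial genes to 2430 in oligodendrocytes, 873 in OPCs and 364 in astrocytes, and was 1895 in oligodendrocytes after TMM. Of 1410 refitted differences that were not called, 129 changed sign. The count of all genes called moved by more than 1.5 times without a filter and with DESeq2: for genotype from 0 to 14 and 206 in oligodendrocytes, from 1 to 90 and 5 in OPCs, from 1 to 30 and 1 in astrocytes and from 1 to 9 and 3 in microglia (3 also with a mean count of at least 10), and for sex from 5 to 99 and 434, 5 to 72 and 13, 6 to 118 and 18, and 7 to 25 and 11; with pair and sex together it was 1 for sex in oligodendrocytes and 19 in astrocytes. The interaction test went from 53 to 1011 without a filter. Between oligodendrocytes and OPCs, library sizes without mitochondrial genes turned 2869 higher and 4518 lower genes into 1681 and 8183. In OPCs against astrocytes they turned 4862 and 3426 into 7054 and 2414, and in OPCs against microglia 7640 and 6064 into 9441 and 4429. All genes called between oligodendrocytes and OPCs went from 7387 to 4693 in control mice alone and 4591 in Rag2-/- mice alone, and between OPCs and astrocytes from 8288 to 4584 in Rag2-/- mice alone. Depth limits Gad1 in microglia, which rested on as little as 1 count.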
